A study of Mus musculus with 12 samples.

Results

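The AP-1 family of transcription factors was followed in mouse bone marrow neutrophils that carried a floxed Socs3 gene with or without a LysMcre label and were kept with or without granulocyte colony-stimulating factor (G-CSF). The family was taken as 10 genes by symbol, Jun, Junb, Jund, Fos, Fosb, Fosl2, Atf3, Batf, Maff and Mafk, out of 13935 genes in the count table. All 10 were in the table and all 10 passed the filter on low values, which kept 13915 genes. RNA was sequenced from 12 libraries in 4 groups of 3. LysMcre Socs3fl/fl cells with G-CSF, Socs3fl/fl cells with G-CSF, LysMcre Socs3fl/fl cells left untreated and Socs3fl/fl cells left untreated made up the groups, and the labels give no age or sex. Both floxed Socs3 alleles are thus common to all 4 groups. The G-CSF dose was 10 ng/ml for 8 h, and untreated cells were held in medium for the same time. Cells were sorted from femoral marrow by CD45, CD11b and Ly6G before culture. In LysMcre mice the recombinase is made from the lysozyme 2 (Lyz2) locus, which is active in neutrophils, monocytes and macrophages, so these groups model a loss of Socs3 in myeloid cells and not in neutrophils alone. Separate mice behind the 3 libraries of each group are not stated in the labels, so a p-value here gauges library-to-library spread that could be technical alone.

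AP-1 is a family of dimers built from proteins with a basic DNA-binding region and a leucine zipper. JUN proteins pair with each other or with FOS proteins, FOS proteins need a JUN partner, and ATF3 and BATF are related zipper proteins that also pair with JUN proteins. The small MAF proteins MAFF and MAFK lack an activation domain of their own and pair with NRF2, BACH1 or FOS proteins at related sites. Many of the genes are immediate early genes, which respond to growth factors, stress and cytokines before new protein is made. SOCS3 is the feedback inhibitor that binds the G-CSF receptor and limits its signalling through STAT3, and Junb is a known target of STAT3.

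Depth was 19495754 to 26472118 reads per library, and levels are given as normalized counts, each library's gene counts over its own size factor. The labels were checked against the targeted gene, the Cre locus and neutrophil markers. Lyz2, the locus that carries the recombinase, averaged 569 normalized counts in LysMcre-labelled against 46227 in floxed libraries with G-CSF, and 6053 against 222590 without it. Socs3 was not lower under the LysMcre label: it averaged 37335 ± 1219 against 19504 ± 1635 normalized counts in LysMcre-labelled and floxed libraries with G-CSF, and 292 ± 34.5 against 225 ± 23.1 without it (SD, n = 3 each). A count over the whole gene does not show whether the floxed segment was deleted. Groups are therefore called by their label, and every direction by genotype below is a direction by label. All 11 of the 11 neutrophil markers were present, and their summed level was 1742000 to 1918000 normalized counts in LysMcre-labelled libraries with G-CSF, 1583000 to 1836000 in floxed libraries with G-CSF, 1421000 to 1611000 in LysMcre-labelled untreated libraries and 1499000 to 1635000 in floxed untreated libraries. For the 3 libraries placed in the LysMcre G-CSF group, the title carries both the word G-CSF and the word untreated, and the description decided.

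With G-CSF, 9 of the 10 AP-1 genes were higher in LysMcre-labelled than in floxed cells, and Fosb was the one that did not pass the test. Without G-CSF, 0 of the 10 passed the test by label in limma, edgeR or DESeq2, and 2 had an unadjusted p under 0.05. Among the 9 that passed, fold differences with G-CSF ran from 1.26 for Jund through 1.83 for Junb to 3.47 for Maff, which encodes a small MAF protein. G-CSF itself raised 9 of the 10 in LysMcre-labelled cells and 7 of the 10 in floxed cells, where Fos, Fosb and Atf3 did not pass. Junb, an activator of transcription in many cells and a brake on JUN in others, had the largest G-CSF response of the 10, 12.6-fold in LysMcre-labelled and 7.52-fold in floxed cells.

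**Figure D1:**
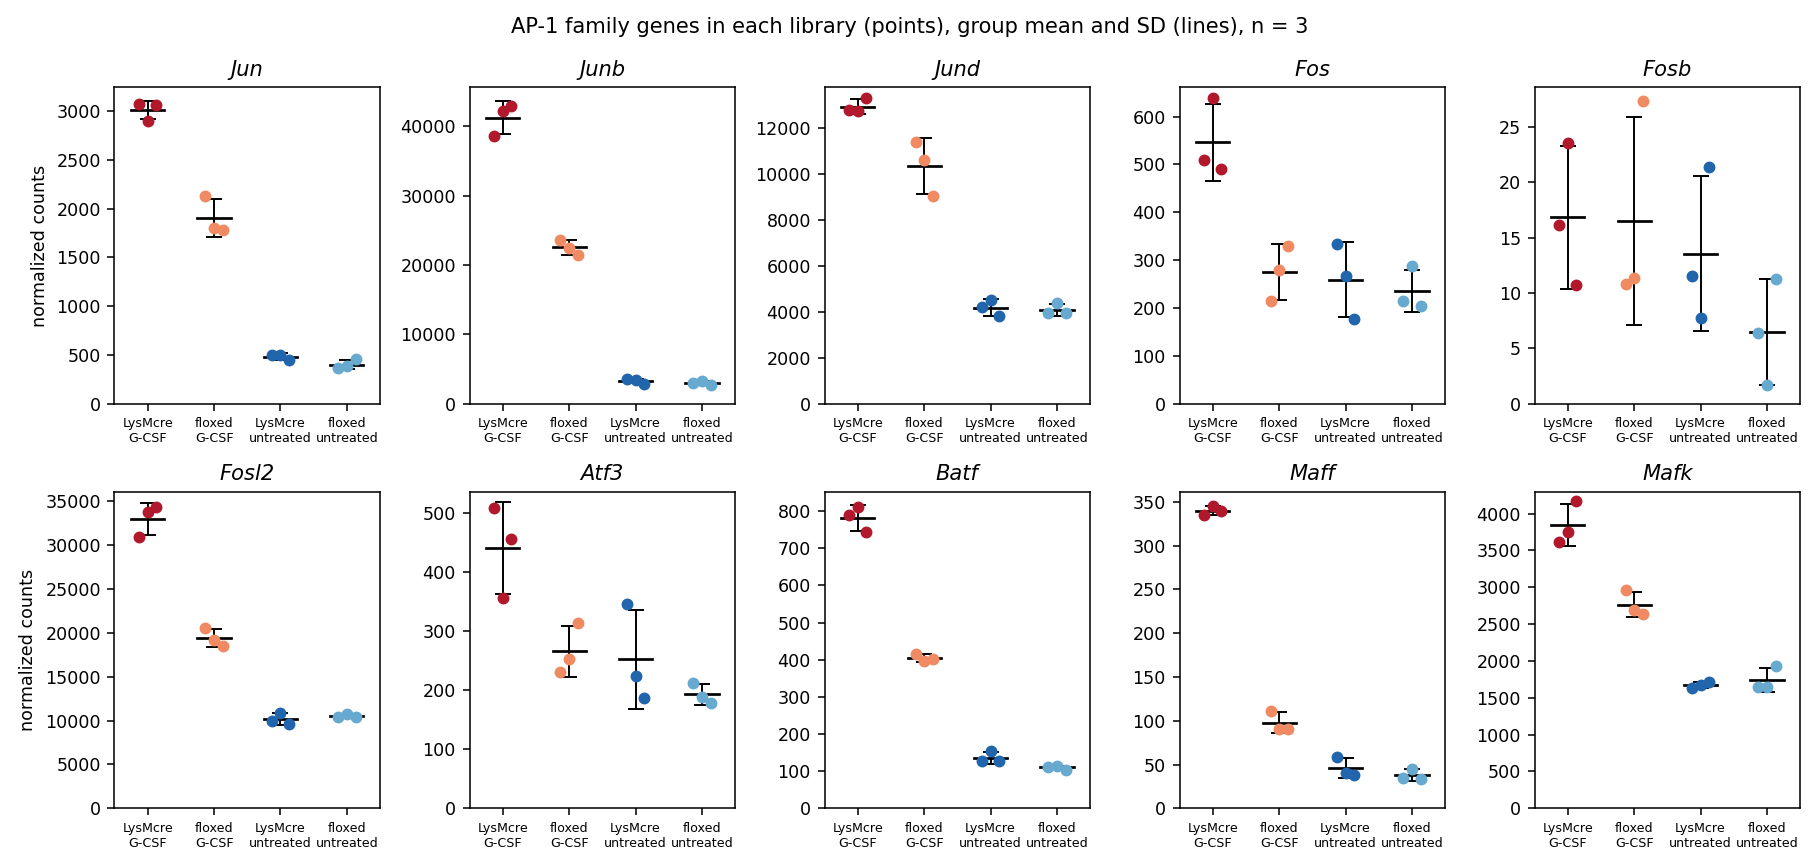
Normalized counts (y axes, from 0) of the 10 AP-1 family genes in each of the 12 libraries, by group along the x axes; points are libraries, and lines are the mean and SD of 3. With G-CSF the LysMcre-labelled points lie above all floxed points for 9 of the genes, and for Fosb the groups overlap.

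The counts were read against all genes tested. The 10 genes were chosen with earlier results of these data known, so the shares describe them and are not a test of the family. A gene passed where its adjusted p was under 0.05 (limma, Benjamini-Hochberg over 13915 genes). With G-CSF, 9 of 10 AP-1 genes were higher under the LysMcre label and 0 were lower, while 36.0% of all genes passed, 17.1% higher and 18.9% lower. The median log2 difference was 0.74 over the 10 genes and -0.01 over all genes. Libraries of the 2 labels did not overlap for 9 of the 10, as for 45.5% of all genes. Without G-CSF, the 2 genes with an unadjusted p under 0.05 were Jun and Batf. Of all genes 0.115% passed in that contrast, 0.0647% higher and 0.0503% lower, so few genes of any kind passed by label without G-CSF. The median there was 0.19 over the 10 genes and -0.01 over all. G-CSF raised 9 and lowered 0 of the 10 in LysMcre-labelled cells, beside 62.6% of all genes that passed, 31.1% raised and 31.6% lowered, and its libraries did not overlap for 9 of the 10, as for 67.6% of all genes. In floxed cells it raised 7 and lowered 0, beside 48.8% that passed, 24.1% raised and 24.6% lowered, and the libraries did not overlap for 8 of the 10, as for 56.0% of all genes. The median log2 difference with G-CSF was 1.67 over the 10 genes in LysMcre-labelled cells and 1.34 in floxed cells, while the medians of all genes were 0.00 in both. For 7 of the 10 the G-CSF difference itself was larger in LysMcre-labelled than in floxed cells (interaction term), beside 22.4% of all genes that passed, 10.9% with a positive and 11.5% with a negative interaction. With libraries scaled to equal totals, 28.2% of all genes called by label with G-CSF were higher, against 47.5% as deposited; the 9 AP-1 calls held, and the Fosb difference turned to -0.026. Under that scaling 5 of the 10 interactions passed, those of Jun and Fos being lost (adjusted p = 0.176 for Jun and 0.118 for Fos), and 23.0% of all interaction calls were positive, against 48.6% as deposited. The 5 contrasts share libraries, so these counts are not independent of each other.

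**Figure D2:**
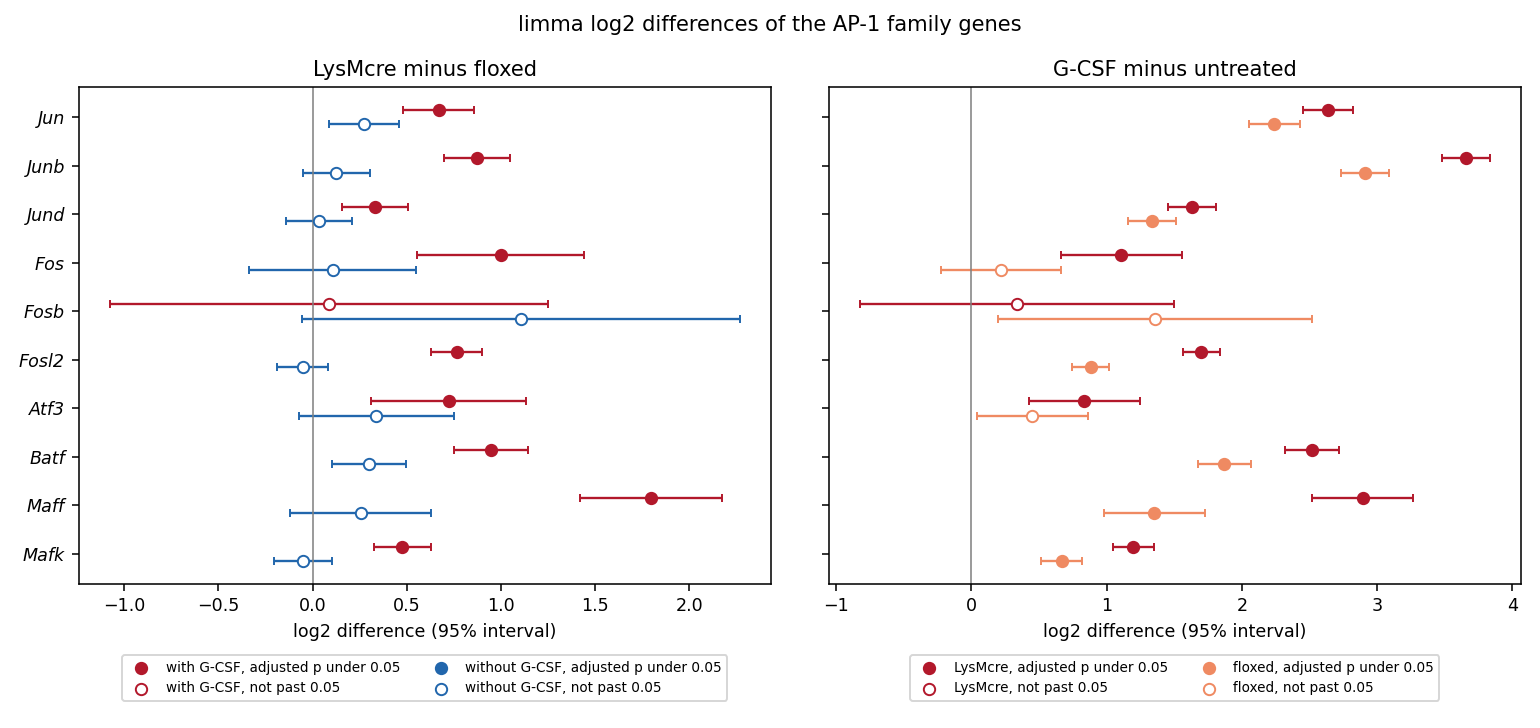
Log2 differences (x axes) of the 10 AP-1 family genes with 95% intervals from limma, LysMcre-labelled minus floxed on the left and G-CSF minus untreated on the right; filled points have an adjusted p under 0.05. On the left the points with G-CSF are filled for 9 genes and the points without G-CSF for 0; on the right Fos and Atf3 are filled in LysMcre-labelled cells alone and Fosb in neither.

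Sequence upstream of the start sites was searched because 9 of the genes rose together with G-CSF in LysMcre-labelled cells. Windows of 250 bases before the RefSeq start (build GRCm38.p6) were read on both strands, and all 10 genes matched an entry, Maff with 3 starts. Among 32851 such windows of all genes, the AP-1 site TGANTCA was in 6.75%, the cyclic AMP response element TGACGTCA in 1.55%, its variant TGACATCA in 2.93%, the STAT site TTCNNNGAA in 7.02%, the serum response (CArG) box in 1.47%, an NF-kappaB site in 7.25% and the antioxidant response core TGACNNNGC in 10.2%. None of the 10 held TGANTCA, TTCNNNGAA or the CArG box in these windows. The windows do not all adjoin the GENCODE gene starts given below. That of Jund, chr8:70697489-70697738, ends before the GENCODE start at 70698949 without reaching it. The Atf3 window, chr1:191183334-191183583, lies within its GENCODE gene. TGACATCA was found for Jun and 1 start of Maff, TGACGTCA for another start of Maff, the antioxidant response core for Mafk and the first start of Maff, and the NF-kappaB site for Fosl2, Fosb, Fos and a start of Maff; matches of different motifs did not overlap. A match of letters is a description of these windows and was not tested as a binding site. The windows of Junb, which had the largest G-CSF response and no match, of Jun and Maff, whose matches are variants of 1 motif, and of Fos, with its NF-kappaB match, are printed 5′ to 3′ on the strand of the gene, with matches in capitals. They lie at chr8:84978749-84978998 on the minus strand (Junb), chr4:95052223-95052472 on the minus strand (Jun), chr15:79347270-79347519 on the plus strand (the second start of Maff) and chr12:85473640-85473889 on the plus strand (Fos).
Junb: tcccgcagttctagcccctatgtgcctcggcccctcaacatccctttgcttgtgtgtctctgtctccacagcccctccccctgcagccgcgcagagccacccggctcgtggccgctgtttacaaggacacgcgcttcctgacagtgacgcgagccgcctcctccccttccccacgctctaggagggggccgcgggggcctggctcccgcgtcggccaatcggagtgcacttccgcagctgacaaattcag
Jun: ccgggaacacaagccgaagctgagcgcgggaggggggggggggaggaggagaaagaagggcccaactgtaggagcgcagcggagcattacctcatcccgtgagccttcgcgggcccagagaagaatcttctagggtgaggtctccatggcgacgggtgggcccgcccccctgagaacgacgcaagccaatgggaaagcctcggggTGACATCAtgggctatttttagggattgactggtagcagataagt
Maff: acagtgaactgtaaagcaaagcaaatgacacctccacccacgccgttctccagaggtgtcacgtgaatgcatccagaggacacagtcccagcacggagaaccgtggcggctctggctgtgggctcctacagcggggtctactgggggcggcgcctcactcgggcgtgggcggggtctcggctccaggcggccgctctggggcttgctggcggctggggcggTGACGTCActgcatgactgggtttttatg
Fos: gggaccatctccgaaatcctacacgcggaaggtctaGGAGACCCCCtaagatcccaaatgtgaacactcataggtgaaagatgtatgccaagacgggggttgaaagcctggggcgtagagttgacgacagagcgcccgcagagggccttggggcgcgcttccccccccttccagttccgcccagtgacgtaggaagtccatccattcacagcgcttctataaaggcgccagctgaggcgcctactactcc
The capitals of Jun lie 45 to 38 bases before its start, those of Maff 29 to 22 bases before its second start, and those of Fos 214 to 205 bases before its start.

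The reads behind these values set how firmly each gene can be read. Fosl2 and Junb rested on 213778 and 199425 reads over the 12 libraries, Jund on 92701, Mafk on 29668 and Jun on 16678, while Batf, Fos and Atf3 rested on 4113, 3879 and 3408, Maff on 1467 and Fosb on 159. The coefficient of variation within a group was 1.98% to 6.79% for Fosl2 and 4.77% to 10.2% for Junb. It was 14.7% to 30.2% for Fos, 9.16% to 33.2% for Atf3 and 38.3% to 74.1% for Fosb. Batf, with about as many reads as Fos and Atf3, varied by 2.42% to 11.9%.

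The JUN genes encode partners of the FOS proteins, ATF3 and BATF. Jun, whose protein JUN gives the family its strongest activator, lies on the minus strand at chr4:95049034-95052222 of GRCm38 (mm10), with a single annotated transcript. It had 3071, 2899 and 3058 normalized counts in LysMcre-labelled libraries with G-CSF against 2123, 1798 and 1775 in floxed ones, and 504, 501 and 447 in LysMcre-labelled untreated libraries against 367, 384 and 454 in floxed ones. Every G-CSF library lay above every untreated one, and the labels separated with G-CSF and overlapped without it. The label difference was 1.59-fold with G-CSF (log2 0.67, SE 0.0872, adjusted p = 2.24e-05) and 1.21-fold without it (log2 0.27, SE 0.0872, adjusted p = 1, interval 0.09 to 0.46). G-CSF raised Jun 6.22-fold in LysMcre-labelled and 4.73-fold in floxed cells, and the interaction of 0.40 (SE 0.123, adjusted p = 0.0315) was the smallest of the 7 that passed. It no longer passed under quantile normalization (0.31, adjusted p = 0.0709), with libraries scaled to equal totals (0.23, adjusted p = 0.176) or in 6 of the 12 fits that left out 1 library, where adjusted p reached 0.0800. An antisense gene, Junos, overlaps the exons of Jun, and whether the authors' counting used strand is not given in the sources used here. Junos averaged 54.7, 42.9, 86.7 and 98.3 normalized counts in the 4 groups in the order above, below Jun in each group, and fell with G-CSF in LysMcre-labelled (log2 -0.65, adjusted p = 0.00348) and floxed cells (log2 -1.16, adjusted p = 3.77e-05).

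Junb lies on the minus strand at chr8:84974484-84978718. It had 38586, 42149 and 42982 normalized counts in LysMcre-labelled libraries with G-CSF against 23634, 22460 and 21486 in floxed ones. Untreated LysMcre-labelled libraries had 3493, 3446 and 2894 against 3044, 3266 and 2694 in floxed ones. The labels thus separated with a wide gap with G-CSF and overlapped without it. The label difference was 0.87 on the log2 scale with G-CSF (SE 0.0822, adjusted p = 8.92e-07) and 0.13 without it (SE 0.0822, adjusted p = 1, interval -0.05 to 0.30). The G-CSF response was larger in LysMcre-labelled cells by 0.75 (SE 0.116, adjusted p = 0.000267). Exons of Prdx2, a peroxiredoxin gene on the other strand, overlap Junb, and Prdx2 averaged 349, 345, 294 and 289 normalized counts in the same order of groups, with no label difference past the threshold.

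Jund, a JUN gene known for steady expression in resting cells, lies on the plus strand at chr8:70698949-70700616. It had 12751, 12721 and 13279 normalized counts in LysMcre-labelled libraries with G-CSF against 11373, 10606 and 9013 in floxed ones, and 4205, 4527 and 3802 in LysMcre-labelled untreated libraries against 3923, 4365 and 3945 in floxed ones. The labels separated with G-CSF and overlapped without it. The label difference with G-CSF was the smallest of the 9 that passed, 1.26-fold (log2 0.33, SE 0.0818, adjusted p = 0.00523), and under quantile normalization it fell short of the threshold (log2 0.18, adjusted p = 0.0558). Jund rose 3.10-fold with G-CSF in LysMcre-labelled and 2.52-fold in floxed cells. The difference between these responses was 0.30 (SE 0.116, adjusted p = 0.0845, interval 0.05 to 0.54) and passed without floxed G-CSF replicate 1 (0.37, adjusted p = 0.0279). The antisense gene Gm11175, whose exons overlap Jund, was not analysed here.

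Among the FOS genes, which supply the partner that JUN needs for the stable heterodimer, Fosl2 carried nearly all the RNA, 3408 of 3643 normalized counts per kilobase of exon in LysMcre-labelled cells with G-CSF and 1087 of 1189 in floxed untreated cells. Fosl2 encodes FRA2, a FOS protein without the strong activation domain of FOS, and lies on the plus strand at chr5:32135801-32157842. It had 30899, 33761 and 34307 normalized counts in LysMcre-labelled libraries with G-CSF against 20517, 19246 and 18513 in floxed ones. Untreated, it had 9996, 10911 and 9559 in LysMcre-labelled against 10443, 10764 and 10372 in floxed libraries. In untreated cells the labels lay in the same narrow range, and with G-CSF they were far apart. The label difference was 1.70-fold with G-CSF (log2 0.76, SE 0.0636, adjusted p = 2.51e-07) and -0.05 on the log2 scale without it (interval -0.19 to 0.08). G-CSF raised it 3.25-fold in LysMcre-labelled and 1.84-fold in floxed cells, an interaction of 0.82 (SE 0.0899, adjusted p = 1.11e-05).

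Fos, the founding immediate early gene of the family, lies on the plus strand at chr12:85473890-85477273 and was far lower. It had 509, 638 and 491 normalized counts in LysMcre-labelled libraries with G-CSF against 215, 280.2 and 330.5 in floxed ones. Untreated, it had 333, 266 and 177 in LysMcre-labelled against 214, 287 and 205 in floxed libraries. The 3 LysMcre-labelled libraries with G-CSF stood above the other 9, which overlapped each other. The label difference with G-CSF was 2.00-fold (log2 1.00, SE 0.208, adjusted p = 0.00145). G-CSF raised Fos 2.16-fold in LysMcre-labelled cells (adjusted p = 0.000246), and in floxed cells the log2 difference was 0.22 (interval -0.23 to 0.66, adjusted p = 0.420). The difference between the responses was 0.89 (SE 0.294, adjusted p = 0.0413). That interaction did not pass with libraries scaled to equal totals (0.72, adjusted p = 0.118) or in 8 of the 12 fits that left out 1 library, where adjusted p reached 0.108. The cells were taken at a single time, 8 h, so an earlier peak of Fos was not measured.

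Fosb, the other long FOS protein, lies on the minus strand at chr7:19302696-19310051 and was close to the limit of counting. It had 16.2, 23.6 and 10.7 normalized counts in LysMcre-labelled libraries with G-CSF against 10.8, 11.4 and 27.3 in floxed ones, and 11.6, 7.74 and 21.4 in LysMcre-labelled untreated libraries against 6.39, 1.71 and 11.3 in floxed ones. The lowest library held 2 reads, and 3 reads were worth 2.57 to 3.54 normalized counts. All 4 groups overlapped their neighbours. The G-CSF difference in floxed cells was 1.36 (SE 0.544, adjusted p = 0.0514). It passed without floxed untreated replicate 3 (adjusted p = 0.0141) and without floxed G-CSF replicate 1 (adjusted p = 0.0470). With this depth a label difference of Fosb with G-CSF could lie anywhere from -1.08 to 1.248 on the log2 scale.

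Atf3 and Batf are zipper proteins that pair with JUN. Atf3, a stress-induced gene that often represses its targets, lies on the minus strand at chr1:191170296-191218039. It had 509.7, 356 and 457 normalized counts in LysMcre-labelled libraries with G-CSF against 231, 254 and 314 in floxed ones, and 347, 224 and 187 in LysMcre-labelled untreated libraries against 213, 188 and 179 in floxed ones. One untreated LysMcre-labelled library, replicate 1, lay above all 3 floxed G-CSF libraries, and the labels separated with G-CSF and overlapped without it. The label difference with G-CSF was 1.65-fold (log2 0.72, SE 0.192, adjusted p = 0.00816). With G-CSF Atf3 rose 1.78-fold in LysMcre-labelled cells (adjusted p = 0.00140). In floxed cells the difference of 0.45 missed the threshold (SE 0.192, adjusted p = 0.0663), although the G-CSF and untreated floxed libraries did not overlap; it passed without floxed G-CSF replicate 1 (adjusted p = 0.0474), with the floxed groups fitted alone (0.0136) and in DESeq2 (0.0396). The interaction was 0.38 (interval -0.20 to 0.97, adjusted p = 0.375).

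Batf, best known for its work with JUN and IRF4 in lymphocytes, lies on the plus strand at chr12:85686669-85709087. It had 789, 811 and 743 normalized counts in LysMcre-labelled libraries with G-CSF against 416, 397 and 401 in floxed ones. Untreated, it had 126, 155 and 127 in LysMcre-labelled against 112, 114 and 104 in floxed libraries. Batf was the only one of the 10 whose labels did not overlap without G-CSF either, as for 9.34% of all genes, and that difference did not pass (1.23-fold, log2 0.30, SE 0.0919, adjusted p = 0.957). With G-CSF the label difference was 1.93-fold (log2 0.95, SE 0.0919, adjusted p = 1.21e-06). G-CSF raised Batf 5.73-fold in LysMcre-labelled and 3.65-fold in floxed cells, an interaction of 0.65 (SE 0.130, adjusted p = 0.00193).

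The small MAF gene Maff, which is itself inducible in many cells, lies on the plus strand at chr15:79346621-79359076 and showed the largest label difference and interaction of the 10. It had 335, 346 and 339 normalized counts in LysMcre-labelled libraries with G-CSF against 112, 91.1 and 90.4 in floxed ones. Untreated, it had 58.9, 40.4 and 38.1 in LysMcre-labelled against 35.2, 45.4 and 32.9 in floxed libraries. The LysMcre-labelled G-CSF libraries agreed within a coefficient of variation of 1.54% and lay far above the rest. The label difference was 3.47-fold with G-CSF (log2 1.80, SE 0.175, adjusted p = 1.27e-06) and 0.26 on the log2 scale without it (interval -0.12 to 0.63). G-CSF raised Maff 7.42-fold in LysMcre-labelled and 2.55-fold in floxed cells, an interaction of 1.54 (SE 0.248, adjusted p = 0.000346).

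Mafk, the small MAF gene with the higher level, lies on the plus strand at chr5:139791513-139802653. It had 3619, 3755 and 4166 normalized counts in LysMcre-labelled libraries with G-CSF against 2958, 2686 and 2644 in floxed ones, and 1636, 1674 and 1711 in LysMcre-labelled untreated libraries against 1645, 1652 and 1928 in floxed ones. The labels again separated with G-CSF and overlapped without it. The label difference with G-CSF was 1.39-fold (log2 0.48, SE 0.0718, adjusted p = 8.95e-05). G-CSF raised it 2.29-fold in LysMcre-labelled and 1.59-fold in floxed cells, an interaction of 0.53 (SE 0.101, adjusted p = 0.00136). Exons of Tmem184a on the other strand overlap Mafk; that gene was not analysed here.

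Levels of different genes were compared per kilobase of exon, with the union of exons in the GENCODE M21 annotation of the same build. With G-CSF the order per kilobase was Junb, Jund, Fosl2, Mafk, Jun, Batf, Fos and Atf3, Maff, Fosb in LysMcre-labelled cells. Mafk and Jun overlapped there, at 986 and 944 normalized counts per kilobase, and so did Fos and Atf3, at 232 and 205. In floxed cells with G-CSF the order was the same down to Batf, with Mafk and Jun apart and Atf3 and Fos overlapping at 124 and 117. In untreated cells Jund stood first on this scale, at 2505 normalized counts per kilobase in LysMcre-labelled and 2445 in floxed cells, then Junb at 1424 and 1304 and Fosl2 at 1049 and 1087. Jun, Atf3, Fos and Batf overlapped one after another in LysMcre-labelled untreated cells between 152 and 96.8, as did Jun, Fos and Atf3 in floxed untreated cells between 126 and 89.8. Maff and Fosb came last in every group.

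That first place depends on the length of Jund. GENCODE gives Jund 1668 bases and RefSeq a gene span of 2878, and with the RefSeq span, chosen after the values were seen, untreated Jund came to 1452 and 1417 normalized counts per kilobase in LysMcre-labelled and floxed cells, close to Junb. The ratio of Junb to Jund counts needs no length for comparing groups. It was 3.19 ± 0.149 in LysMcre-labelled and 2.19 ± 0.166 in floxed cells with G-CSF, and 0.784 ± 0.0401 and 0.736 ± 0.0477 in untreated LysMcre-labelled and floxed cells (SD, n = 3 each). The library ranges of that ratio did not overlap between labels with G-CSF, 3.03 to 3.31 against 2.08 to 2.38, and overlapped without it.

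Summed per kilobase, the 10 genes reached 32130 ± 1355 normalized counts in LysMcre-labelled and 19860 ± 1337 in floxed cells with G-CSF, and 5903 ± 470 and 5692 ± 268 in untreated LysMcre-labelled and floxed cells (SD, n = 3 each). Jun, Junb and Jund together held 82.8% ± 0.0783 of the sum in LysMcre-labelled and 83.4% ± 0.648 in floxed cells with G-CSF, against 69.1% ± 0.633 and 68.0% ± 1.22 in untreated LysMcre-labelled and floxed cells. Fos, Fosb and Fosl2 together held 11.3% and 10.7% with G-CSF in LysMcre-labelled and floxed cells, against 19.7% and 20.9% untreated. The JUN share moved with G-CSF by far more than the spread between libraries, and the labels were close at each condition although their sums differed with G-CSF. The longest transcript of each gene as its length gave JUN shares of 80.2%, 80.7%, 64.0% and 62.6% in the same order, and the RefSeq span of Jund gave 80.9%, 81.0%, 62.4% and 61.0%.

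**Figure D3:**
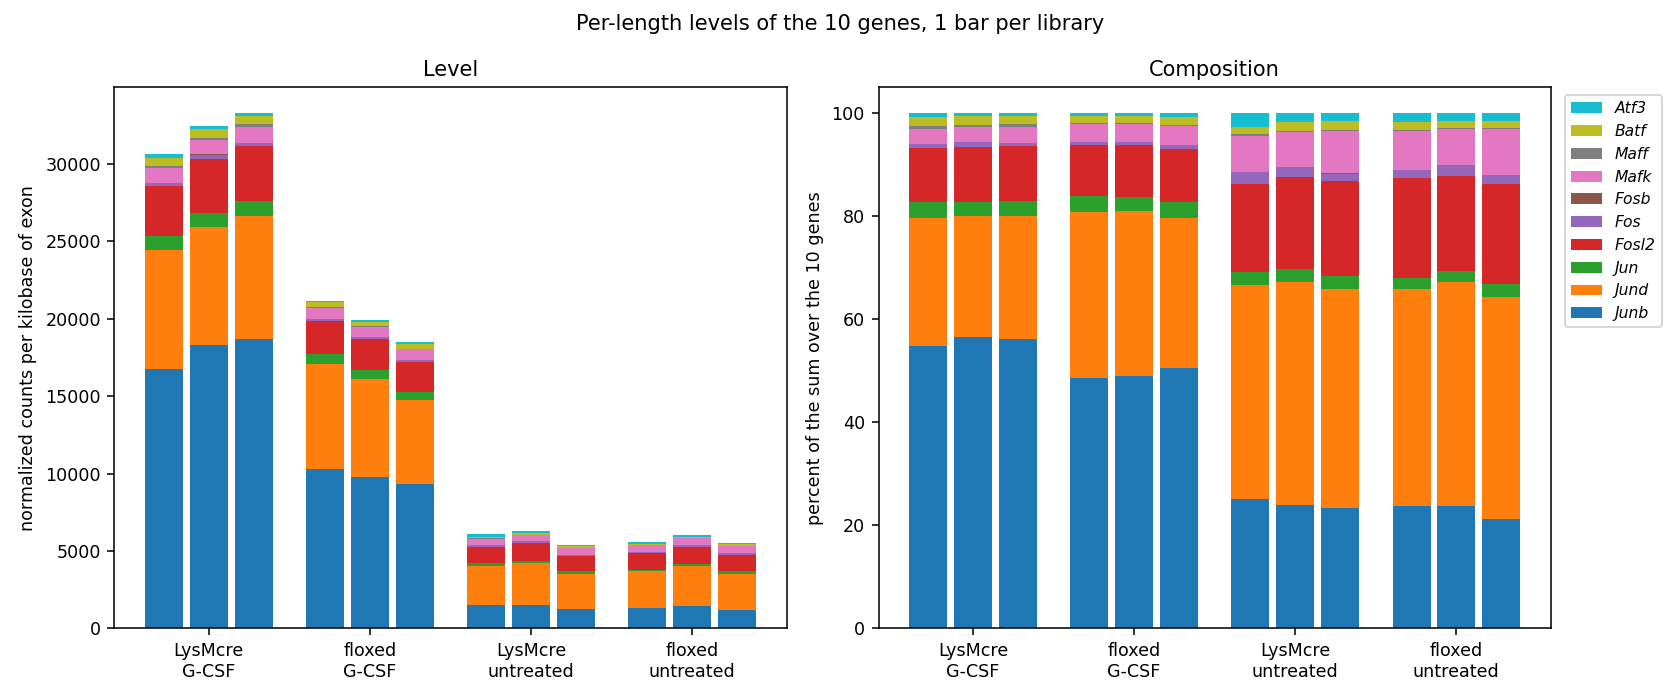
Summed normalized counts per kilobase of exon (left) and percent of that sum (right) of the 10 AP-1 family genes, 1 bar per library and 3 bars per group, with colours for the genes. The bars of LysMcre-labelled libraries with G-CSF are the tallest on the left. On the right the G-CSF bars of both labels have larger Junb and smaller Jund and Fosl2 segments than the untreated bars. With G-CSF the mean Junb segment is 55.8% in LysMcre-labelled and 49.3% in floxed libraries. The mean Jund segment is 24.1% and 31.1%.

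Markers of other cells were followed beside these results, since fewer cells of a type and less RNA per cell cannot be told apart in sorted bulk samples. None of the markers in the table was at 0 in any library. Of the 61 markers tested over 10 lists, 17 differed by label with G-CSF in limma and 0 without it. Of all genes 36.0% passed by label with G-CSF, 17.1% higher and 18.9% lower, and 0.115% passed without it. Without G-CSF, 4 of the 61 markers had an unadjusted p under 0.05, and edgeR and DESeq2 called 0. In the stroma and endothelium list 2 of 5 were higher by label with G-CSF, Pecam1, which neutrophils also make, and Col1a1. The other 3 did not pass, among them Cdh5 and Cxcl12 at log2 -0.19 and -0.04. The list's sum was 1328 to 1553 normalized counts in LysMcre-labelled against 760 to 798 in floxed libraries with G-CSF, and 804 to 925 against 715 to 866 without it. Most of that sum was Pecam1, which averaged 1326 against 701 with G-CSF. The 6 T and NK cell markers summed to 173 to 202 in LysMcre-labelled against 203 to 241 in floxed libraries with G-CSF, with 0 higher and 2 lower by label, and to 453 to 489 against 361.5 to 419.9 without it. The 7 monocyte and macrophage markers summed to 13850 to 16970 in LysMcre-labelled and 16400 to 20350 in floxed libraries with G-CSF, against 20420 to 23000 and 21220 to 22360 untreated. Ly6c2 and Cx3cr1 were lower, while F13a1, Ms4a4c and Ccr2 were higher, with G-CSF in LysMcre-labelled cells. The 7 B cell markers summed to 10270 to 17020 in LysMcre-labelled against 7007 to 10610 in floxed libraries with G-CSF, and to 12060 to 17910 against 8811 to 12660 without it. With G-CSF 1 of the 7 was higher by label in limma and 0 in DESeq2: Ighm, at 9417 against 5239 normalized counts, while the list's median log2 difference was -0.11. Of the remaining lists by label with G-CSF, 2 of 6 progenitor markers were higher and 1 lower, 2 of 11 neutrophil markers higher and 5 lower, 1 of 3 dendritic cell markers lower, and 0 of 8 eosinophil, basophil and mast cell, 3 erythroid and 5 platelet markers passed in limma or edgeR. Of the 8 first named, 2 had an unadjusted p under 0.05 and 1 passed in DESeq2, and of the erythroid and platelet markers 0 did either. With G-CSF against untreated, 25 of the 61 markers differed in LysMcre-labelled and 26 in floxed cells, beside 62.6% and 48.8% of all genes. Kit, a progenitor marker, was 7.70-fold higher with G-CSF in LysMcre-labelled and 3.74-fold higher in floxed cells, and Siglecf, an eosinophil marker, 3.06-fold and 3.42-fold higher. Cd3d, a T cell marker, was 7.88-fold lower with G-CSF in LysMcre-labelled and 4.68-fold lower in floxed cells, and Retnlg, a neutrophil marker, 8.48-fold and 2.49-fold lower. The lists of these 4 genes did not move as a whole. Of 6 progenitor markers, 1 rose and 1 fell in LysMcre-labelled cells, and 2 rose and 1 fell in floxed cells. Of 8 eosinophil, basophil and mast cell markers, 1 rose in LysMcre-labelled and 2 in floxed cells, and 0 fell. Cd3d was the 1 of 6 T and NK cell markers that passed in each label. Of 11 neutrophil markers, 5 rose and 5 fell in each. The part of these cells in the AP-1 differences was not tested.

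Other zipper factors followed the members in part. Of 19 measured genes that encode further AP-1 or related zipper proteins, 9 were higher and 2 lower under the LysMcre label with G-CSF. Of all genes 17.1% were higher and 18.9% lower. The median log2 difference of the 19 was 0.33. This list and those below were chosen with earlier results of these data known, so their counts describe them and are not a test. Crem, a cyclic AMP response modulator, averaged 473 ± 115 against 206 ± 15.1 normalized counts (log2 1.17, adjusted p = 1.05e-05), and Atf6, a factor of the unfolded protein response, 2639 ± 189 against 1806 ± 30.9 (log2 0.54, adjusted p = 2.20e-05; SD, n = 3 each). Fosl1, which encodes FRA1, was also higher (log2 0.86) but did not meet the rule for named genes given with the processing. Mafg, the remaining small MAF gene, was lower (log2 -0.34). G-CSF raised 11 and lowered 5 of the 19 in LysMcre-labelled cells, and raised 10 and lowered 3 in floxed cells. Over all genes it raised 31.1% and lowered 31.6% in LysMcre-labelled cells, and raised 24.1% and lowered 24.6% in floxed cells. Nfe2l2, which encodes the small MAF partner NRF2, averaged 6547 ± 232 with G-CSF against 3745 ± 202 untreated in floxed cells (log2 0.81, adjusted p = 5.71e-09), and its response was larger in LysMcre-labelled cells by 0.60 (adjusted p = 3.98e-05).

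Kinase genes upstream of AP-1 went in both directions, as did all genes. Of 26 measured genes of the MAP kinase cascade, 4 were higher and 8 lower under the LysMcre label with G-CSF. Of all genes 17.1% were higher and 18.9% lower. The median log2 difference of the 26 was -0.09. Map3k8, a kinase that feeds the ERK branch in myeloid cells, averaged 3928 ± 473 against 1701 ± 162 normalized counts (log2 1.204, adjusted p = 8.29e-08), and Mapkapk2, a kinase below p38, 10692 ± 1574 against 6143 ± 19.0 (log2 0.79, adjusted p = 1.38e-06). Mapk14, which encodes p38 alpha, was lower, at 3902 ± 662 against 6672 ± 542 (log2 -0.78, adjusted p = 9.28e-06), as was Rps6ka1, a ribosomal S6 kinase (log2 -0.70). G-CSF raised 8 and lowered 14 of the 26 in LysMcre-labelled cells, and raised 3 and lowered 11 in floxed cells. The shares of all genes were 31.1% and 31.6% in LysMcre-labelled cells, and 24.1% and 24.6% in floxed cells. RNA levels of kinases say nothing of their activity, which was not measured.

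Among 13 factors that act on the Fos and Jun promoters, 6 were higher and 1 lower under the LysMcre label with G-CSF. Of all genes 17.1% were higher and 18.9% lower. Stat3, the factor SOCS3 restrains, averaged 28624 ± 643 against 21153 ± 1485 normalized counts (log2 0.44, adjusted p = 1.72e-05), and Elk3, a serum response partner, 583 ± 16.5 against 328 ± 26.3 (log2 0.83, adjusted p = 4.84e-07). Mkl1, a coactivator of serum response factor, was the one that was lower, at 2666 ± 285 against 5084 ± 620 (log2 -0.93, adjusted p = 5.47e-07). G-CSF raised Stat3 in both LysMcre-labelled (log2 1.96) and floxed cells (log2 1.51). Of 5 measured genes for the turnover and coactivation of JUN, 1 was higher and 1 lower in that contrast, beside the same shares of all genes. Rfwd2, which encodes the ubiquitin ligase COP1, was lower under the LysMcre label with G-CSF, at 1941 ± 87.2 against 2633 ± 82.4 (log2 -0.44, adjusted p = 9.57e-06). Det1, which works with COP1, was higher (log2 0.35, adjusted p = 0.0208), a call lost with libraries scaled to equal totals (adjusted p = 0.115), in DESeq2 (0.0614) and without floxed G-CSF replicate 3 (0.0806) or LysMcre-labelled G-CSF replicate 1 (0.0699).

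Most of the other immediate early genes that were listed were also higher under the LysMcre label with G-CSF. Of 22 measured, 14 were higher and 3 lower, beside 17.1% and 18.9% of all genes. The median log2 difference of the 22 was 0.63. Egr2, a zinc finger factor, averaged 511 ± 46.5 against 80.2 ± 28.8 normalized counts (log2 2.71, adjusted p = 1.32e-06), and Egr1 551 ± 60.4 against 187 ± 55.4 (log2 1.59, adjusted p = 8.01e-05). Nr4a3, an orphan nuclear receptor, and Egr3 were also higher (log2 1.85 and 1.41), while Rhob, a small GTPase, was lower (log2 -0.68). Csrnp1 and Ier3 had the largest G-CSF responses of the list, at log2 4.51 and 4.48 in LysMcre-labelled and 3.12 and 3.27 in floxed cells.

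Listed genes that textbooks give as AP-1 targets went in both directions, as did all genes. Of 16 measured, 4 were higher and 4 lower under the LysMcre label with G-CSF. Of all genes 17.1% were higher and 18.9% lower. The median log2 difference of the 16 was 0.07. The 4 that were higher were Spp1, the gene for osteopontin, at 1685 ± 228 against 302 ± 109 normalized counts (log2 2.54, adjusted p = 2.01e-05), Bcl2l11, which encodes the cell death protein BIM (log2 1.77), Cdkn1a, which encodes the cell cycle inhibitor p21 (log2 1.62), and Mt1, a metallothionein gene (log2 1.11). Those that were lower were Plau, the urokinase gene, its receptor gene Plaur, the gelatinase gene Mmp9 and Vim, at log2 -0.71, -0.29, -0.32 and -0.30. Il1b, the gene for interleukin-1 beta, rose with G-CSF in LysMcre-labelled (log2 3.44) and floxed cells (log2 3.09), and its label difference with G-CSF was 0.50 and did not pass.

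The list of targets of the small MAF partners NRF2 and BACH1 was also chosen with earlier results of these data known. Of the 10 listed and measured, 9 were higher and 1, the heme transporter gene Slc48a1, lower under the LysMcre label with G-CSF. Of all genes 17.1% were higher and 18.9% lower. The median log2 difference of the 10 was 0.75. Txnrd1, a thioredoxin reductase gene, averaged 13475 ± 82.4 against 4137 ± 135 normalized counts (log2 1.70, adjusted p = 6.00e-11), and Fth1, the ferritin heavy chain gene, 226770 ± 4998 against 79381 ± 4487 (log2 1.52, adjusted p = 3.56e-09). Slc7a11, which imports cystine, and Srxn1, a sulfiredoxin gene, were higher by 1.65 and 1.19. G-CSF raised 9 and lowered 1 in LysMcre-labelled cells, and raised 7 and lowered 1 in floxed cells. Of all genes it raised 31.1% and lowered 31.6% in LysMcre-labelled cells, and raised 24.1% and lowered 24.6% in floxed cells. Without G-CSF, 0 of the 110 genes of these 7 lists passed by label in limma, edgeR or DESeq2, and 1 had an unadjusted p under 0.05. Only 0.115% of all genes passed that contrast in limma, so the count of 0 is not particular to these lists.

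**Figure D4:**
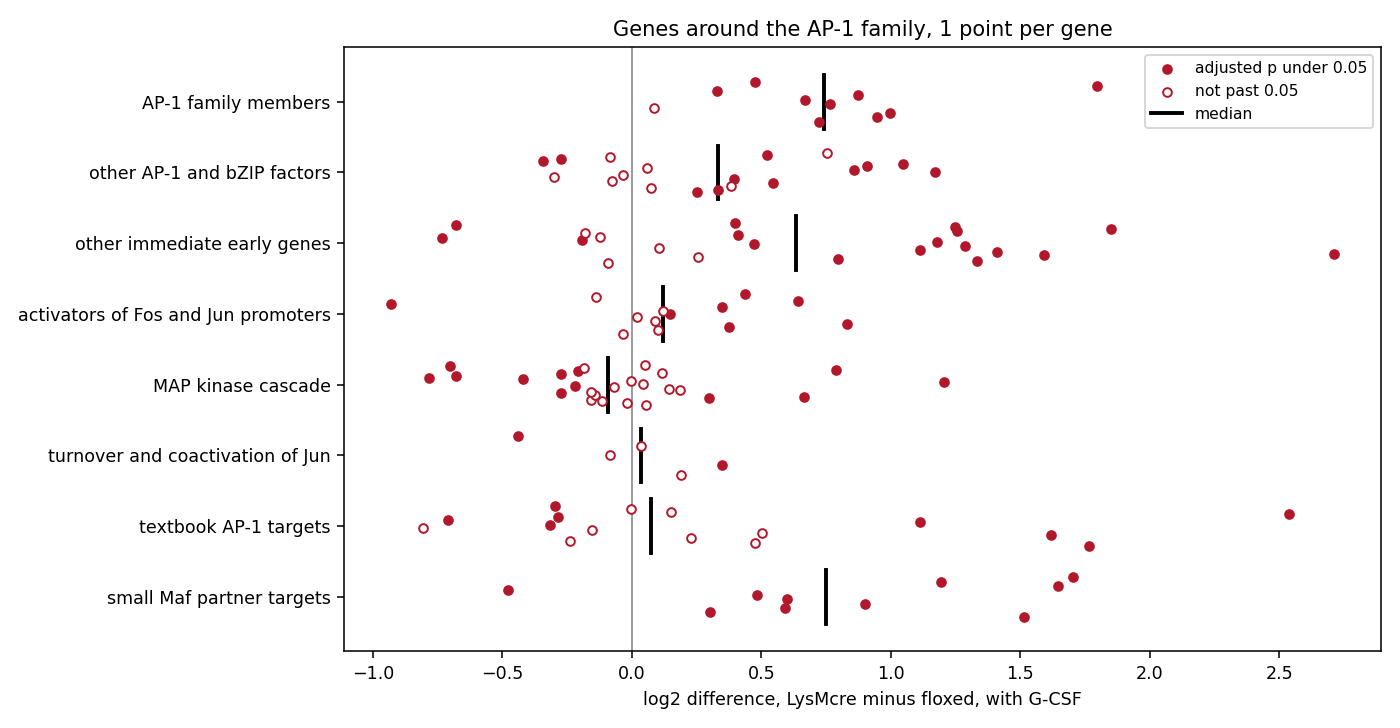
Log2 difference of LysMcre-labelled minus floxed cells with G-CSF (x axis) for each AP-1 family gene and each gene of 7 related lists (rows); filled points have an adjusted p under 0.05 and black bars are medians. The AP-1 members, the immediate early genes and the small MAF partner targets have medians of 0.74, 0.63 and 0.75, and the MAP kinase genes have a median of -0.09.

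The genes whose profile was most like each member were taken as the 3 with the lowest root mean square difference of centred log2 values over the 12 libraries, among 9656 genes with a mean of at least 50 normalized counts. The closest match was of Fosl2 with Snx18, a sorting nexin gene, at 0.05 log2 units, followed by Slc11a1 and Slc39a1. Mafk was matched by Phf8, Susd6 and Gpkow at 0.05 to 0.06, and Jund by Selplg, Spryd3 and Fam217b at 0.07 to 0.09. Junb, with the widest profile, was nearest to Csf2rb2, a cytokine receptor subunit gene, at 0.11, then Gpr146 and Arid5a. Jun was nearest to Ddi2, P2ry2 and Ccr1 at 0.13 to 0.14, and Batf to Tnfsf14, Bmp2k and Gclm at 0.14 to 0.15. Maff was nearest to Cltb at 0.14, with Txnrd1 and Uck2 at 0.20, so 1 small MAF partner target was among the nearest genes of Batf and 1 among those of Maff. Fos and Atf3 had no match nearer than 0.19, with Fam105a, Zak and Kcnn4 for Fos and Tmbim1, Fam136a and Usp31 for Atf3. Fosb, which passed in no contrast, was not matched. These likenesses describe 12 libraries in 4 groups, with profiles set mainly by the group means.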

How the data were processed

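Transcript abundance was measured by RNA-seq in 12 neutrophil libraries. The authors deposited a signal, in which gene counts were scaled by a single size factor for each library (normalized counts). This was read from the values, of which 100.0% were whole multiples of their library's step at a tolerance of 0.01 read, so whole reads could be recovered. Reads were placed on mm10, per the submitters' processing notes, while the sources used here give no aligner, counter, annotation or strand setting. Per the labels' protocols, RNA was isolated with Trizol. The table had 13935 rows and 2 columns with no sample or values, and its lowest row total was 121 reads. Positions come from GENCODE M21, which matched 13541 symbols and not 394, and promoter windows from RefSeq GRCm38.p6. The 3 LysMcre-labelled G-CSF libraries were grouped by their description. For 1 column the number differs from its sample's title. That column was matched through the sample's description, and the title gave its replicate number.

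Values were taken as log2(value + 1), which understates changes of low genes; genes with a mean under 10 were left out (20 genes), and a single limma fit (3.58.1, R 4.3.3) with a trended prior held all 12 libraries, leaving 8 residual degrees of freedom. Two-sided p-values were adjusted by Benjamini-Hochberg over all 13915 genes, and 0.05 was the threshold. Contrasts were the label with and without G-CSF, G-CSF in each label and their interaction. The design assumed values that are not whole reads; edgeR 4.0.16 and DESeq2 1.42.0 on the recovered reads were run as alternatives, beside other pseudocounts, filters, scalings, the replicate number as a block, the 2 groups alone, each library left out and other gene lengths. The 10 members and the gene lists were chosen with earlier results of these data known. Named genes were the members, Socs3 and Lyz2, and per list and contrast up to 4 genes with the largest change past 0.05, without overlap (not asked of the interaction) and with 50 or more normalized counts in the higher group; Fosl1, Mafg, Slc48a1, Plaur, Mmp9, Vim, the marker genes and the overlapping genes Junos and Prdx2 were named outside that rule, after their values were seen. A gene that the rule names is not reported here. The fit was tested on simulated data.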

Additional observations from a re-analysis of the deposited data

Results flagged for a closer look

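For 7 of the 10 AP-1 genes the G-CSF response differed between the labels by the interaction term of limma, adjusted over 13915 genes, of which 10.9% had a positive interaction past the threshold. The difference of LysMcre-labelled minus floxed responses was 1.54 for Maff, 0.89 for Fos, 0.82 for Fosl2, 0.75 for Junb, 0.65 for Batf, 0.53 for Mafk and 0.40 for Jun on the log2 scale. All 7 were positive, so the genes rose further with G-CSF under the LysMcre label. Their cause was not tested.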

How the results depend on the processing

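Over 894 alternative values of the 10 genes in 5 contrasts, 862 kept direction and side of the threshold, 18 lost a call, 7 gained one and 7 reversed; 40 of the 50 pairs of gene and contrast never changed. None of the reversed values had passed. Fosb by label with G-CSF was -0.026 with equal totals and -0.18 to 0.49 without 1 library, below 0 without floxed G-CSF replicate 1 or 2 or LysMcre-labelled G-CSF replicate 2. By label without G-CSF and without 1 library, Fos ranged over -0.098 to 0.36 (lowest without LysMcre-labelled untreated replicate 1), Jund over -0.027 to 0.099 (lowest without LysMcre-labelled untreated replicate 2) and Mafk over -0.092 to 0.022 (highest without floxed untreated replicate 3). The count of the 10 that passed ranged over 8 to 9 by label with G-CSF, 9 with G-CSF in LysMcre-labelled cells, 7 to 9 in floxed cells and 5 to 7 for the interaction. Over all genes by label without G-CSF, 16 passed, against 28 in DESeq2 and 9 to 21 without 1 library (9 without floxed untreated replicate 1, 10 without LysMcre-labelled untreated replicate 1). Equal totals lowered the median of all genes to -0.13 by label with G-CSF, -0.26 and -0.09 with G-CSF in LysMcre-labelled and floxed cells and -0.18 for the interaction. The share of calls that were higher was then 28.2%, 31.2%, 38.5% and 23.0%, against 47.5%, 49.6%, 49.5% and 48.6%; the 9 calls by label with G-CSF held. The Jun interaction was lost with quantile normalization (0.31, adjusted p = 0.0709) and equal totals (0.23, adjusted p = 0.176). Gene length moved the JUN shares by more than their spread. Same-numbered libraries correlated at -0.18 to 0.32, other pairs at -0.28 to 0.20, and 6 of 12 correlated best with their own number. Between untreated and G-CSF libraries the same numbers gave 0.32, 0.20 and 0.061 in floxed and 0.21, -0.032 and 0.030 in LysMcre-labelled cells. Different numbers gave -0.28 to 0.15 in floxed and -0.18 to 0.16 in LysMcre-labelled cells. These values do not settle whether numbers pair the libraries. With the replicate block 9, 0, 9, 8 and 7 of the 10 passed, and 4892, 16, 8692, 6673 and 2967 of all genes; Fosb then passed with G-CSF in floxed cells (adjusted p = 0.0372). Depth limits Fosb, with 159 reads in all.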
